A study of Mus musculus with 10 samples.

Results

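The genes described here are 36 genes of DNA replication and mitosis, listed by symbol and followed in mouse liver after microRNA-122 (miR-122) was blocked. Each gene was represented by 1 array probe that the array annotation assigns to that gene alone, taking the probe with the highest mean over all livers where there was more than 1. A tested probe of this kind was present for 34 of the 36 genes, out of 18012 genes with such a probe on the array. The other 2, Ccnb1 and Tyms, had no tested single-gene probe and have no values here. Of the 34, 21 were counted as replication genes and 13 as mitosis genes by their best known role. The list is by name and role and sets no threshold on these arrays, but it was drawn up with earlier results of them known.

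Livers of 10 mice were measured, 1 array per mouse, in 2 groups of 5. Replicates are numbered here in the order of the sample titles within each group, and the numbers pair no livers between groups. The treated mice, male C57Bl/6, received 50 mg/kg of a miR-122 antisense oligonucleotide (ASO) intraperitoneally, 2 injections a week over 4 weeks. The oligonucleotide is RNA with 2′-O-methoxyethyl and phosphorothioate modifications, which protect it from nucleases. The control mice were injected with saline at the same times, and the labels give neither sex nor strain for them. Tissue was collected 2 days after dosing ended. Because the control was saline and no oligonucleotide of another sequence was given, blocking miR-122 and the chemistry of the oligonucleotide cannot be told apart.

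A cell that divides first copies its DNA and then separates the copies. Cyclin D and cyclin E with their kinases release E2F transcription factors in late G1, E2F switches on the genes that license and copy DNA, and a later wave of genes, driven in part by Foxm1, builds the spindle and its checkpoint. Adult hepatocytes are almost all at rest and can re-enter the cycle after injury or loss of liver mass, and many are polyploid, with extra sets of chromosomes. miR-122 is very abundant in hepatocytes. It has been described as a brake on hepatocyte growth, and cyclin G1 is one of its reported targets in human liver cells. The liver also holds dividing or recently divided blood, endothelial and immune cells. In whole liver, a change in the number of such cells and a change in RNA per cell cannot be told apart.

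The arrays stood on a common median intensity, between 1.03 and 1.05 on the linear scale, and levels are given below as log2 of that intensity. A value of 0 is therefore close to the median probe. Values under -2.38 were set to -2.38, called the floor here, so differences of probes near it depend on where it was set. Hepatocyte markers stood far above the median, with group means between 9.80 and 10.4 for Alb, Apoa1, Cyp2e1 and Ttr. The brightest probes of saline replicate 1 ended at 542 on the linear scale, against 1198 to 2333 on the other arrays. Each array is a separate mouse, and their number limits the precision.

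No member of the set passed the threshold. In limma, with p-values adjusted by the Benjamini-Hochberg method over 36088 probes, 0 of 34 members had an adjusted p under 0.05, beside 23 of all probes (0.0637%), and the smallest adjusted p was 0.292, for Mki67. At an unadjusted p under 0.05 there were 3 members (8.82%), against 11.2% of all probes. Of these, 2 were higher in the ASO group, Mki67 and Ccna2, against 4.58% of all probes, and 1 was lower, Foxm1, against 6.66%. The median log2 fold change was 0.014 over the 34 members and -0.0029 over all probes, with 18 members above 0 and 16 below. The groups overlapped in all 34 members, while 2.37% of all probes had groups without overlap. A difference of 1.5-fold or more, which the study set out to detect, was seen in 3 members, the same Mki67, Ccna2 and Foxm1, and in 12.0% of all probes. These shares are close to or below those of the whole array. Probes above the median level, with 19 of the 34 members among them, had a median difference of -0.085 as deposited and of 0.021 after quantile normalization. Of these members, Rrm2 moved from -0.40 to -0.28, Cdk4 from -0.41 to -0.29, Gmnn from 0.18 to 0.33 and Aurka from 0.064 to 0.21.

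The intervals show what size of change these 10 livers could have missed. The 95% interval of the difference lay wholly within 2-fold in either direction for 23 of the 34 members, and within 1.5-fold for 6. It contained 0 for 31 members. The intervals of the other 11 members reached beyond 2-fold on 1 side. Values set to the floor can narrow an interval, so those of members with such values do not exclude a 2-fold change. Plk1, at the floor in 3 livers of each group, had an interval from -0.73 to 0.44. Mcm2, at the floor in 3 saline livers, had one from -0.19 to 0.97. Leaving out 1 liver turned the sign or moved the difference by over 1.5 times in 29 members, all but Mki67, Ccna2, Foxm1, Rrm2 and Mcm2. With a pseudocount of 1 in place of the floor, Ccna2 went from 0.62 to 0.28 and Foxm1 from -0.84 to -0.36. Under the same setting Mki67 went from 0.76 to 0.55, Rrm2 from -0.40 to -0.37 and Mcm2 from 0.39 to 0.13. Data were simulated with 1 spread per probe, averaged over the 2 groups, and 200 of 36088 probes, all above the median level, were given a change. The shares called hold for that setting. They may not hold for these arrays, where 11.2% of all probes had an unadjusted limma p under 0.05. In the simulated data limma called none (0 of 67) of the probes given a 1.5-fold change. At 2-fold it called 14 of 67 (20.9%), and at 4-fold 55 of 66 (83.3%). No dimmer probe was given a change, so these rates do not describe members below the median level, Ccna2 and Foxm1 among them.

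**Figure D1:**
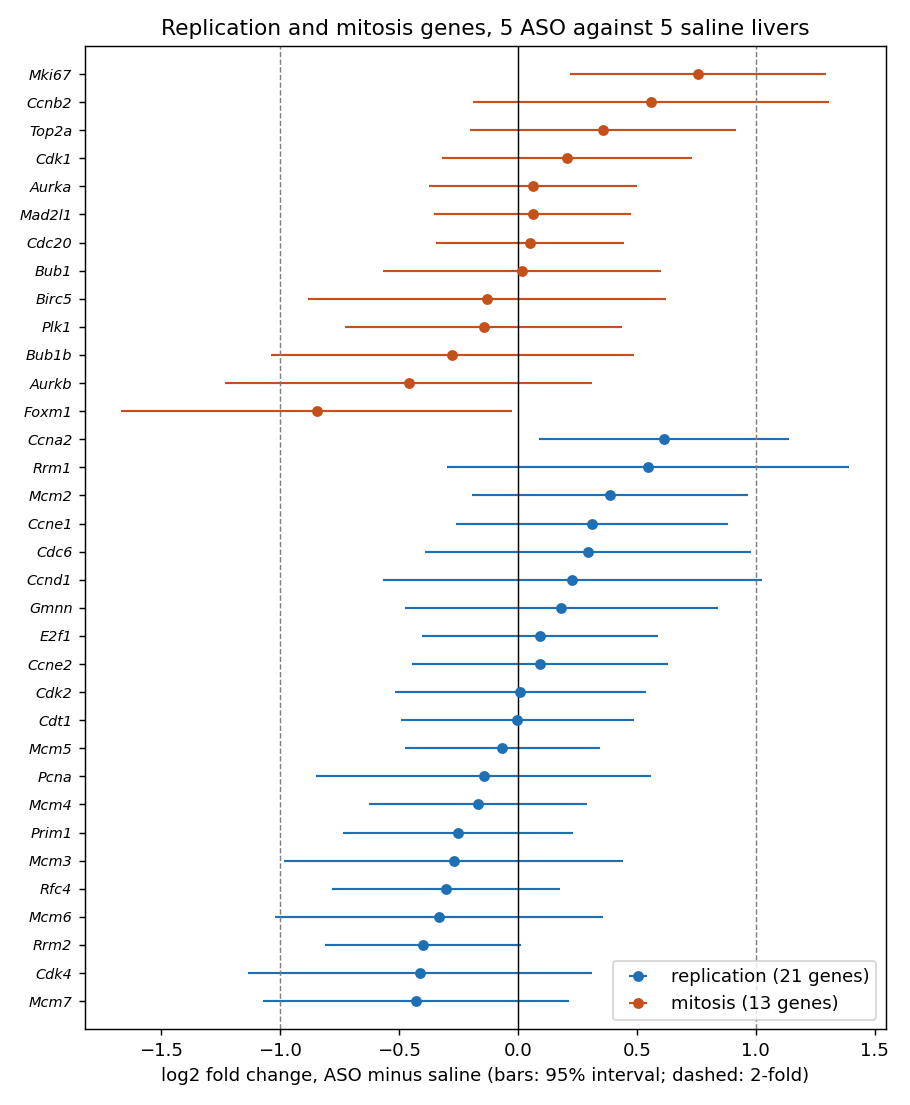
Log2 fold change, ASO minus saline, of the 34 members with a tested probe, replication genes in blue and mitosis genes in orange. Points are limma estimates from 5 against 5 livers, bars are 95% intervals and dashed lines mark 2-fold; 31 of the 34 bars cross 0, and Mki67, Ccna2 and Foxm1 are the exceptions.

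The control regions of these genes show what the members share beyond their listed role. RefSeq promoters (GRCm38.p6, 250 bases before to 50 bases after the start) were at hand for 29 of the 36 genes, as 30 promoters. Each was searched on both strands for an E2F core (the letters TTCCCGC, or else TTGGCGC, or else TTCGCGC, or else TTGCCGC). The search also took in the cell cycle homology region (CHR, TTTGAA) and the CCAAT box (CCAAT) that often lies near it. Through the CHR, the DREAM complex is known to hold mitotic genes silent in resting cells. E2F cores, which can overlap their own reverse complement, were in 12 of 18 promoters of replication genes (66.7%), in 3 of 12 of mitosis genes (25.0%) and in 9.57% of all 32851 promoters. The CHR was in 1 of 18 promoters of replication genes (5.56%), in 8 of 12 of mitosis genes (66.7%) and in 17.9% of all. CHR and CCAAT box occurred together in 8 of the 12 mitosis promoters and in 6.95% of all promoters. The split by role therefore also shows in these letters, as a description of the sequences and not of binding.

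The 120 bases before the start are printed for 5 members whose values are given below, 2 replication genes with E2F cores and 3 mitosis genes with the CHR, each 5′ to 3′ on the strand of the gene with E2F cores, CHR and CCAAT boxes in capitals on either strand.
Mcm6 at chr1:128359706-128359825, minus strand: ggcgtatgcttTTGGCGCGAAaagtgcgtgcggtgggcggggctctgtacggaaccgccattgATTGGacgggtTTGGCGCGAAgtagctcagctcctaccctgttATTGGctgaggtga
Rrm1 at chr7:102441575-102441694, plus strand: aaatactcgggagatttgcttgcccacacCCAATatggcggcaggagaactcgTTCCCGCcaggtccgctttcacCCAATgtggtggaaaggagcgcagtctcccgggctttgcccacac
Mki67 at chr7:135716380-135716499, minus strand: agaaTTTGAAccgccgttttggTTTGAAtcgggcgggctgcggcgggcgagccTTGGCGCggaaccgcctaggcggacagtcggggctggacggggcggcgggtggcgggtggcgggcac
Cdk1 at chr10:69352913-69353032, minus strand: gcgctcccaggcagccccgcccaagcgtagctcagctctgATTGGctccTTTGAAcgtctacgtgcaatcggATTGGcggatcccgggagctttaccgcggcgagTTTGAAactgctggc
Top2a at chr11:99024190-99024309, minus strand: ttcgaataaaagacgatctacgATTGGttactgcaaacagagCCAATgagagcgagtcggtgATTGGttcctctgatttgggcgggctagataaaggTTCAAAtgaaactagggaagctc

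Among the cyclins and kinases that carry a cell into S phase, Ccna2 stood out at an unadjusted p under 0.05 and the others did not. Ccna2 encodes cyclin A2, which drives DNA synthesis and is made from S phase on. In saline replicates 1 to 5 it read -1.27, -0.32, -0.39, -0.16 and -0.45, and in ASO replicates 1 to 5 it read -0.05, 0.20, 0.28, 0.45 and -0.40. In the ASO group 4 of 5 livers lay above all saline livers, and ASO replicate 5 lay within the saline range. The log2 fold change was 0.62 ± 0.24 (SE, limma adjusted p = 0.373), and the two-sided exact permutation test of the 2 groups gave p = 0.0317, where 0.00794 is the smallest it can give. Saline replicate 1 lay far below the other saline livers, and without it the difference was 0.43 with an adjusted p of 0.644.

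Ccnd1 encodes cyclin D1, the G1 cyclin that is induced early when hepatocytes re-enter the cycle. Its probe read -2.38, -2.16, -1.92, -0.83 and -1.37 in the saline livers and -1.60, -0.86, -2.38, -0.82 and -1.85 in the ASO livers, replicates 1 to 5 in each. The groups covered almost the same range, 1 liver in each lay at the floor, and the log2 fold change was 0.23 ± 0.36 (adjusted p = 0.848). Its partner Cdk4 ranged from 3.62 to 4.63 in saline livers and from 2.68 to 4.57 in ASO livers, a difference of -0.41 ± 0.33. It was -0.22 without saline replicate 1 and -0.69 (unadjusted p = 0.0248, adjusted p = 0.286 in limma) without ASO replicate 5. Here 4 of 5 ASO livers lay below all saline livers, but ASO replicate 5, at 4.57, was close to the highest saline liver. The cyclin E genes, whose products act at the entry into S phase and are known for their part in the extra genome copies of hepatocytes, had 0.31 ± 0.26 (Ccne1) and 0.09 ± 0.25 (Ccne2). Cdk2, the kinase bound by cyclins E and A, had 0.011 ± 0.24, with a 95% interval from -0.52 to 0.54.

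The licensing genes load the replicative helicase onto DNA before S phase, and none of them separated the groups. Of the 6 subunits of the MCM helicase, only Mcm2 had a positive difference and the other 5 had negative ones, each under 1.5 times its SE. Mcm5 was at 0.03 without saline replicate 4, and the other 5 kept their sign in all alternatives run. Mcm2 read -1.68, -2.38, -1.77, -2.38 and -2.38 in saline livers and -2.22, -2.33, -1.46, -1.35 and -1.27 in ASO livers. With 3 saline livers at the floor, 3 ASO livers above all saline livers and 2 inside their range, its log2 fold change was 0.39 ± 0.26 (adjusted p = 0.611). The value depended on the floor, at 0.73 (adjusted p = 0.523) with none and 0.13 with a pseudocount in its place. Mcm7 went the other way, at -0.43 ± 0.29 (adjusted p = 0.611). It read -1.21, -0.97, -0.82, -0.74 and -2.10 in saline livers and -1.31, -2.38, -1.56, -1.33 and -1.41 in ASO livers. So 4 of 5 saline livers lay above all ASO livers, and saline replicate 5 lay among the lowest. Without it the difference was -0.66 (unadjusted p = 0.0214, adjusted p = 0.355 in limma), and without ASO replicate 2 it was -0.23. The values of Mcm3, Mcm4, Mcm5 and Mcm6 were -0.27 ± 0.33, -0.17 ± 0.21, -0.066 ± 0.19 and -0.33 ± 0.32.

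Genes for proteins that place and restrain the helicase had differences no larger than their errors. Cdc6, which recruits the helicase to origins, had 0.30 ± 0.31, and Cdt1, its partner, had -0.0021 ± 0.22. Gmnn encodes geminin, the inhibitor of Cdt1 that blocks a second round of licensing. It ranged from 3.78 to 5.49 in saline livers and from 4.34 to 5.27 in ASO livers, so the ASO range lay inside the saline range, and the difference was 0.18 ± 0.30. A second, dimmer probe of Cdc6 gave 0.12 ± 0.22, with 4 of its 10 values at the floor.

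At the replication fork, Pcna, the sliding clamp that tethers DNA polymerase, had a small difference in mean and a larger SD in the ASO group. It read 5.62, 5.88, 5.89, 6.23 and 5.71 in saline livers and 4.96, 6.50, 6.29, 4.87 and 6.00 in ASO livers. ASO replicates 1 and 4 lay below every saline liver and replicates 2 and 3 above every one, so the mean went from 5.87 ± 0.23 to 5.72 ± 0.76 (SD, n = 5 per group) with a difference of -0.14 ± 0.32 (SE). Whether the spread itself differs was not tested. Over all probes, 62.1% had the larger SD in the ASO group, as had 18 of the 34 members. Rfc4, a subunit of the clamp loader, was also wider in ASO livers (SD 0.46 against 0.12) and had -0.30 ± 0.22. Prim1, the catalytic primase subunit that starts each strand, had -0.25 ± 0.22.

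Ribonucleotide reductase, which makes the building blocks of DNA, has a large subunit from Rrm1 and a small one from Rrm2 that is normally limited to S phase. The 2 genes had differences of opposite sign, neither of them called. Rrm2 read 4.28, 3.88, 3.70, 4.23 and 3.93 in saline livers and 3.87, 3.70, 3.15, 3.57 and 3.74 in ASO livers. All 5 ASO livers lay below the saline median. In 3 of them, ASO replicates 2, 3 and 4, Rrm2 was below every saline liver, and the other 2 lay within the saline range. The gap between ASO replicate 2 and the lowest saline liver is lost in rounding to 3.70. The log2 fold change was -0.40 ± 0.19 (adjusted p = 0.462), and the two-sided exact permutation test gave p = 0.0317. Rrm1 lay at the floor in 3 saline livers and 1 ASO liver and read -0.04 in ASO replicate 1, against -1.66 or less in the other 9 livers. Its difference of 0.55 ± 0.39 was 0.15 without ASO replicate 1.

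Of the mitosis genes, Mki67 had the smallest p of the whole set, and the 95% interval of every spindle kinase and checkpoint gene of the set contained 0. Mki67 encodes Ki-67, the coat protein of mitotic chromosomes that pathologists stain to count cycling cells. It read 0.87, 0.60, 1.28, 0.88 and 0.96 in saline livers and 1.84, 1.09, 1.64, 2.42 and 1.38 in ASO livers. All 5 ASO livers lay above the saline median and 4 lay above every saline liver, while ASO replicate 2 fell inside the saline range. The saline mean was 0.92 ± 0.24 and the ASO mean 1.67 ± 0.51 (SD, n = 5 each). Their difference was 0.76 ± 0.25 (SE) on the log2 scale, or 1.69-fold (adjusted p = 0.292), and the two-sided exact permutation test gave p = 0.0159. This p is 1 of 34 and is not adjusted. The difference ranged from 0.57 to 0.90 when each liver was left out in turn.

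**Figure D2:**
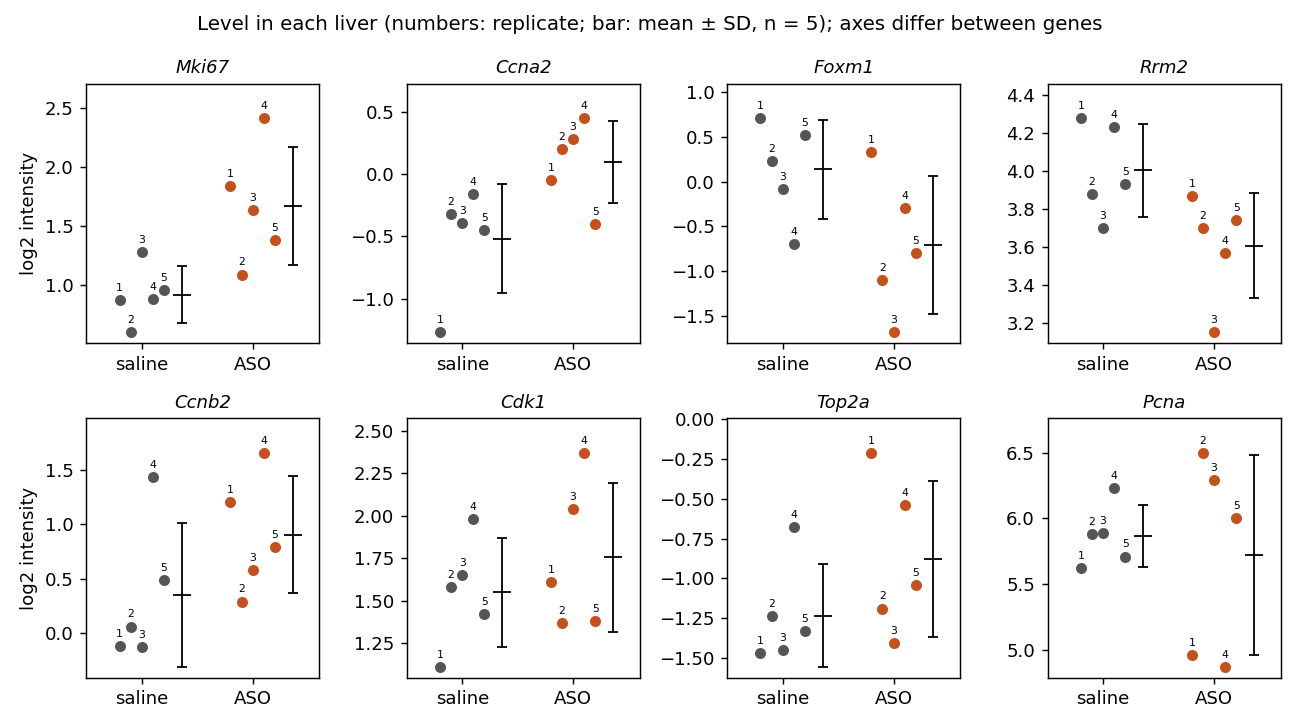
Log2 intensity of 8 members in each of 5 saline (grey) and 5 ASO (orange) livers, with replicate numbers above the points and the group mean ± SD to the right; the vertical axes differ. In Mki67 4 of 5 ASO livers lie above all saline livers and in Ccna2 also 4 of 5, in Ccnb2, Cdk1 and Top2a the groups overlap more widely, and in Pcna the ASO livers spread from 4.87 to 6.50.

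Genes that act with Ki-67 from G2 into mitosis gave smaller values. Ccnb2, a cyclin B that activates Cdk1, read -0.12, 0.06, -0.13, 1.44 and 0.49 in saline livers and 1.21, 0.29, 0.58, 1.66 and 0.79 in ASO livers. Its log2 fold change was 0.56 ± 0.34 (adjusted p = 0.565), and saline replicate 4 was higher than 4 of the 5 ASO livers. Cdk1, the kinase that starts mitosis, read 1.11, 1.58, 1.65, 1.98 and 1.42 in saline livers and 1.61, 1.37, 2.04, 2.37 and 1.38 in ASO livers, a difference of 0.21 ± 0.24 (adjusted p = 0.781). Only ASO replicates 3 and 4 lay above all saline livers, and without ASO replicate 4 the difference was 0.054. Top2a, the topoisomerase that untangles sister chromosomes, read -1.47, -1.24, -1.45, -0.68 and -1.33 in saline livers and -0.21, -1.19, -1.41, -0.54 and -1.04 in ASO livers. ASO replicates 1 and 4 lay above the saline livers, the difference was 0.36 ± 0.25 (adjusted p = 0.625), and a second probe gave 0.31 ± 0.22.

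The spindle checkpoint genes hold chromosomes back until every one is attached. Mad2l1 had a difference of 0.063 ± 0.19, Bub1 of 0.017 ± 0.27 and Bub1b of -0.27 ± 0.35. Cdc20, which the checkpoint restrains and which opens the way to anaphase, had 0.052 ± 0.18, the smallest SE of the 34 members, with a 95% interval from -0.34 to 0.45. Among the kinases, Aurka, needed for spindle poles, had 0.064 ± 0.20 at its brighter probe and -0.31 ± 0.23 at a dimmer one. Aurkb and Birc5 encode partners in the chromosomal passenger complex. They had -0.46 ± 0.35 and -0.13 ± 0.34, and Aurkb ranged from -0.67 to -0.27 when each liver was left out in turn. Plk1, the kinase of mitotic entry and exit, lay at the floor in 3 livers of each group, and its difference was -0.14 ± 0.27, or -0.13 with no floor.

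The transcription factors of the set had differences of opposite sign, neither of them called. Foxm1, which drives many mitotic genes, read 0.71, 0.23, -0.08, -0.70 and 0.52 in saline livers and 0.33, -1.10, -1.68, -0.30 and -0.80 in ASO livers. In 3 of 5 ASO livers it was below all saline livers, and the log2 fold change was -0.84 ± 0.38 (adjusted p = 0.433). The two-sided exact permutation test gave p = 0.0952. E2f1, an activator of replication genes, ranged from 0.28 to 1.06 in saline livers and from 0.47 to 1.51 in ASO livers, a difference of 0.094 ± 0.23. So the 3 members with an unadjusted p under 0.05 did not share a direction.

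Livers of the same group differed from each other in these genes. For each liver, the median over members of the level minus that member's mean over all livers was taken. Over the 13 mitosis genes it was 0.52 in ASO replicate 4 and 0.38 in saline replicate 4, and between -0.24 and 0.017 in the other 8 livers. Over the 21 replication genes the same 2 livers were also highest, at 0.16 and 0.24, with the others between -0.17 and 0.12. ASO replicate 4 held the highest value of 10 of the 34 members and saline replicate 4 of 8, while these arrays held the highest value of 12.4% and 10.2% of all probes. Saline replicate 1 held the lowest value of 11 members, and of 22.1% of all probes. ASO replicate 4 was the highest of all livers for Mki67, Ccna2, Ccnb2 and Cdk1. Saline replicate 4 was the highest saline liver for Ccna2, Ccnb2, Cdk1, Top2a, Ccnd1 and Pcna, but not for Mki67.

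**Figure D3:**
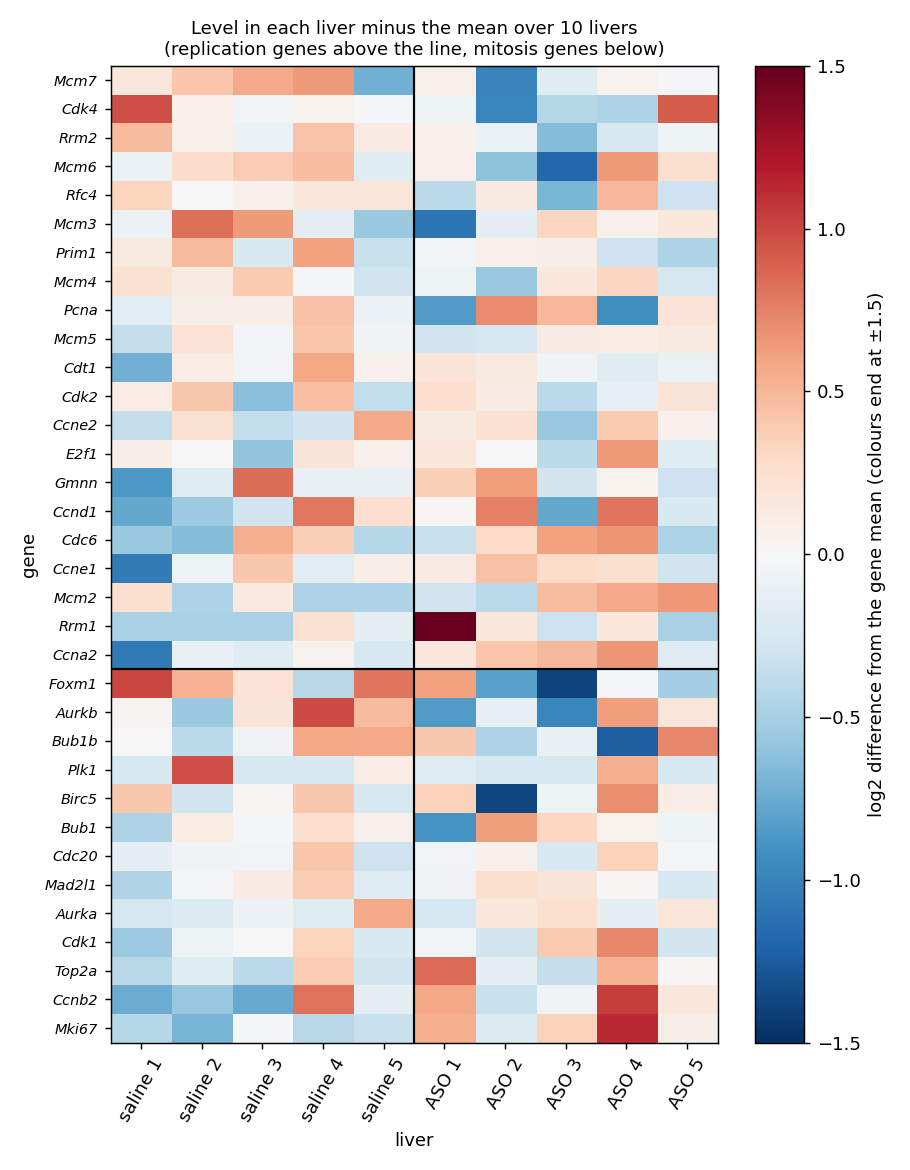
Level of each of the 34 members (rows) in each of 10 livers (columns) minus the member's mean over all livers, on the log2 scale, red above and blue below, with colours ending at 1.5. The columns of saline replicate 4 and ASO replicate 4 are the reddest in the lower block of 13 mitosis genes.

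Levels of other cell types also varied between these livers, and their part in the pattern was not tested. ASO replicate 4 was the highest liver for endothelial markers (median of 0.83 over 8 genes) and for neutrophil and granulocyte precursor markers (0.24 over 9 genes). It stood at 0.54 for Kupffer cell and macrophage markers. Saline replicate 4 stood at -0.36, -0.083 and -0.29 for the same lists. It was the highest liver for T, NK and B cell markers (0.31 over 9 genes), where ASO replicate 4 stood at -0.11. For stellate cell, bile duct and hepatocyte markers, saline replicate 4 stood at 0.124, -0.014 and 0.177, and ASO replicate 4 at 0.038, 0.053 and 0.061. For red cell precursor markers they stood at 0.157 and -0.219.

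**Figure D4:**
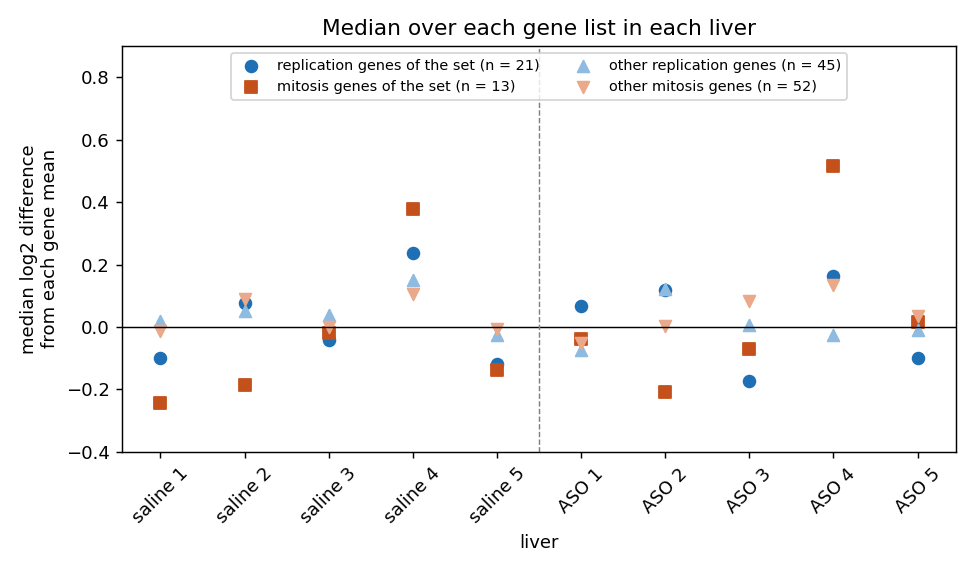
Median over each gene list of the log2 level minus the gene's mean over 10 livers, for saline replicates 1 to 5 and ASO replicates 1 to 5. Squares (13 mitosis genes) reach 0.38 in saline replicate 4 and 0.52 in ASO replicate 4, while the 45 other replication genes and 52 other mitosis genes, shown as pale triangles, stay between -0.074 and 0.15. The other mitosis genes are also highest in these 2 livers, at 0.106 and 0.133, and the other replication genes stand there at 0.15, their highest, and -0.026.

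The rest of the replication machinery was also without a called gene. Of 45 further genes of replication and S phase, 20 had a positive and 25 a negative difference, the median was -0.049, and 0 passed the adjusted threshold. At an unadjusted p under 0.05 there were 4 higher and 2 lower (13.3%, against 11.2% of all probes). Orc2, a subunit of the origin recognition complex, had a log2 fold change of 0.66 ± 0.20, and Mcm10, which helps to start the fork, had 0.59 ± 0.21. Dut, which keeps uracil out of DNA, had -0.55 ± 0.22, and Tk1, thymidine kinase, had -0.47 ± 0.19.

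Among 52 further mitosis genes, 24 had a positive and 28 a negative difference, with a median of -0.045 and 0 called. At an unadjusted p under 0.05 there were 5 higher and 4 lower (17.3%, against 11.2% of all probes, or 4.58% higher and 6.66% lower). Spc25 and Spc24, which form one end of the kinetochore's NDC80 complex, both had negative values, -0.88 ± 0.24 (adjusted p = 0.237) and -0.51 ± 0.14. Nuf2, at the other end of that complex and named after its value was seen, had 0.39 ± 0.26. Kif22, a chromosome-arm motor, had 0.75 ± 0.22, and Anln, which encodes the cleavage furrow protein anillin, had -0.77 ± 0.27. Kif23, another motor of cell division, lay at the floor in all 10 livers.

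Regulators of G1 gave no call among 28 genes, of which 15 had a positive and 13 a negative difference. The median was 0.065, and at an unadjusted p under 0.05 there were 1 higher and 3 lower (14.3%, against the same 11.2% of all probes). The E2F repressor gene E2f8, known for its part in hepatocyte genome doubling, had the largest difference of these lists, 1.23 ± 0.34 (adjusted p = 0.246). Its mean was 2.99 ± 0.67 in saline and 4.22 ± 0.52 in ASO livers (SD, n = 5 per group). Cdkn2b, the CDK inhibitor p15, had -0.69 ± 0.17 (adjusted p = 0.190), Cdk6 had -0.63 ± 0.24 and Tfdp2, a partner of E2F, had -0.63 ± 0.26. Ccng1, the cyclin G1 gene named above as a reported target, was picked out for that reason and had 0.22 ± 0.18 (adjusted p = 0.667).

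Markers of other cells that could hold dividing cells gave no call either. Shares at an unadjusted p under 0.05 are to be read against the 11.2% of all probes, and the lists are short. T, NK and B cell markers had a median of -0.25 over 9 genes with 2 lower at an unadjusted p under 0.05, Ms4a1 (-0.57 ± 0.16) and Klrb1c (-0.91 ± 0.36). Negative differences were seen in 7 of the 9, and positive ones in Cd3e (0.063 ± 0.17) and Nkg7 (0.24 ± 0.23). Their summed linear intensity ran from 11.5 to 16.1 in saline and from 8.61 to 12.0 in ASO livers. This sum weighs bright probes most, and the brightest was the B cell gene Cd79a (-0.51 ± 0.23). Neutrophil and granulocyte precursor markers had a median of 0.13 over 9 genes, 6 with positive and 3 with negative differences. At an unadjusted p under 0.05, 2 were higher, Elane (0.74 ± 0.19) and Ltf (0.80 ± 0.32). The negative differences were those of S100a8 (-0.32 ± 0.30), S100a9 (-0.19 ± 0.31) and Camp (-0.080 ± 0.19). Summed intensity of this list ran from 12.4 to 19.2 in saline and from 15.4 to 20.9 in ASO livers. Red cell precursor markers had a median of 0.0078 over 6 genes, led by Ermap (-0.41 ± 0.19) and Alas2 (-0.51 ± 0.29). Endothelial markers had 0.16 over 8 genes, 6 with positive and 2 with negative differences. Only Cdh5, at 0.87 ± 0.28, was higher at an unadjusted p under 0.05, and Stab1 had 0.49 ± 0.32. The Cdh5 probe was dim, with group means of -1.97 in saline and -1.10 in ASO livers against the floor of -2.38. The negative differences were those of Lyve1 (-0.38 ± 0.47) and Kdr (-0.23 ± 0.48). For the 8 Kupffer cell and macrophage genes the middle value was -0.13, with C1qa at -0.67 ± 0.41 and Adgre1 at 0.26 ± 0.23. The medians were -0.22 over 8 stellate cell genes (Col3a1 -0.34 ± 0.18, Pdgfrb -0.41 ± 0.26), 0.12 over 6 bile duct genes (Krt19 -0.62 ± 0.24 and Tspan8 0.57 ± 0.23, both at an unadjusted p under 0.05) and 0.42 over 6 hepatocyte genes (Alb 0.57 ± 0.27, Apoa1 0.50 ± 0.26). The red cell, Kupffer cell, stellate cell and hepatocyte lists had 0 genes at that p. For hepatocyte genes, saline replicate 1, whose brightest probes ended lowest, stood at -1.185, against -0.387 to 0.517 in the other livers. No marker probe lay at the floor in all livers, but the group means of Cd3e and Camp were close to it. In saline and ASO livers they were -2.30 and -2.24 for Cd3e, a T cell marker, and -2.22 and -2.30 for Camp, a neutrophil marker. Whether any of these shifts bears on Mki67 or Ccna2 was not tested.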

How the data were processed

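Total liver RNA was labelled with biotin by the CodeLink assay, per the labels' protocols. The authors deposited linear array intensities, from 1 array per mouse. How they subtracted background, scaled the arrays and left values missing is not given in the sources used here. Each array held 74 to 377 values that were 0 or negative.

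Of 36227 probes, 36088 with at least 3 values per group were tested. Values below the 10th percentile of positive values (0.192) were set to it before log2. Probes with 1 gene symbol numbered 21615. Differences are ASO minus saline, fitted per probe with limma 3.58.1 (lmFit, eBayes) in R 4.3.3 with no covariate, two-sided. Single members were also tested by exact permutation of 5 against 5 livers (252 arrangements).

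Values in every liver are given for members with an unadjusted p under 0.05, the next 4 by p, and Mki67, Top2a, Pcna, Ccnd1 and Cdk1. From each of 3 further cell cycle lists up to 4 genes, and from each of 8 marker lists up to 2, were named by smallest p. Members and lists were chosen with earlier results of these data known, and no list was tested as a set. Simulated data were drawn for 36088 probes with 200 changed.

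Results were recomputed without each array in turn, with array weights, with a trended and robust eBayes, with quantile normalization, with a pseudocount of 1 or nothing in place of the floor, with dim probes left out, with a gene's probes averaged, and, added after the data were seen, cyclic loess and second probes.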

Additional observations from a re-analysis of the deposited data

Results flagged for a closer look

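In 8 of 68 groups of 5 livers (34 members in 2 groups) 1 liver stood apart from the other 4, with a gap of more than 0.71 of the group's range. Chance gives about 1 such group in 20 for values that are not floored, a rate that does not apply to the groups of Plk1, Mcm7 and Rrm1 below, which hold values at the floor. Ccna2 read -1.27 in saline replicate 1, with the other saline livers between -0.45 and -0.16. Cdk4 read 4.63 in saline replicate 1, with the others between 3.62 and 3.74. E2f1 read 0.28 in saline replicate 3, with the others between 0.86 and 1.06, and Aurka read 2.89 in saline replicate 5, with the others between 2.07 and 2.23. Plk1 read -1.17 in saline replicate 2, with the others between -2.38 and -2.03, and -1.59 in ASO replicate 4, with the others between -2.38 and -2.32. Mcm7 read -2.38, the floor, in ASO replicate 2, with the others between -1.56 and -1.31. Rrm1 read -0.04 in ASO replicate 1, with the others between -2.38 and -1.73.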

How the results depend on the processing

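No member passed the adjusted threshold under any of the 18 alternatives run for that count, where the smallest adjusted p was 0.186, for Mki67 with only probes above the median level. The 23 calls over all probes went to 7 with no floor, 73 with only probes above the median level, 42 with eBayes trend and robust and 39 with cyclic loess, and to between 0 and 16 with 1 array left out. With only probes above the median level, 19 members were left, 1 was higher and 0 lower at an unadjusted p under 0.05, and the replication median was -0.16. With no floor 0 members were lower at that p. Leaving out each array gave 1 to 3 members higher and 0 to 2 lower. Ccna2 kept an unadjusted p under 0.05 in 14 of 17 alternatives, Foxm1 in 8 of 17 and Mki67 in 18 of 18. The cause was not tested. Medians under these leave-one-out fits ran from -0.042 to 0.056 (34 members), -0.13 to 0.030 (replication) and -0.042 to 0.084 (mitosis). Sign changes touched 13 members, whose main differences were at most 0.18 in size, with adjusted p from 0.642 to 1 where they turned. Cdt1 turned to 0.12 with quantile normalization and to the same 0.12 with cyclic loess. Bub1 was -0.027 under quantile normalization, -0.067 with array weights, -0.029 under cyclic loess, -0.035 as the mean of its probes and -0.088 at its second probe. Aurka was -0.12 as the mean of its probes and -0.31 at its second probe. Array weights gave -0.00055 for Ccne2, -0.030 for Cdk2 and 0.030 for Birc5, and a pseudocount gave -0.0045 for Cdk2. With 1 array left out the ranges were -0.32 to 0.20 (Birc5), -0.14 to 0.24 (Bub1), -0.028 to 0.16 (Cdc20), -0.14 to 0.13 (Cdk2), -0.18 to 0.14 (Cdt1), -0.055 to 0.21 (E2f1), -0.011 to 0.42 (Gmnn), -0.042 to 0.17 (Mad2l1), -0.16 to 0.030 (Mcm5), -0.34 to 0.070 (Pcna) and -0.30 to 0.080 (Plk1). Scaling moved the median of all probes from -0.0029 to 0.024 at most, and that of probes above the median level from -0.085 to 0.021 with quantile normalization. No paired analysis was possible because the labels give the groups no shared replicate numbers. Signal over background limits Plk1, Mcm2, Rrm1, Ccnd1 and Mcm7, the 5 members with values at the floor.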
